A study of Mus musculus with 7 samples.

Results

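Mammary glands of wild-type BALB/c mice kept in organ culture for 24 days, with or without vitamin D5, were compared on 2 CodeLink Mouse Whole Genome arrays, 1 for each condition, out of 7 arrays in the series. The comparison holds the gene probes whose spots the scanner software called good on both arrays, and asks which transcripts differed in level between the culture with vitamin D5 and the culture without it. The other 5 arrays hold C57 wild-type glands after 10 days and after 24 days without DMBA (a carcinogenic hydrocarbon), C57 wild-type glands after 24 days with DMBA, and αERKO and βERKO glands, which lack estrogen receptor α or β, after 24 days. The donors were 4 weeks old. The protocol attached to every array, written for C57/BL, αERKO and βERKO mice, gives 9 days of pretreatment of the mice with estrogen (1 µg) plus progesterone (1 mg), then 10 days of the glands in serum-free medium with insulin and prolactin at 5 µg/ml and aldosterone and hydrocortisone at 1 µg/ml, then 14 days with insulin alone. The titles of the BALB/c arrays name neither DMBA nor the form, dose or timing of vitamin D5. Those of the αERKO and βERKO arrays do not name DMBA either. The paper describes its arrayed WT, αERKO and βERKO glands as exposed to DMBA in culture, after 5 days of pretreatment with EGF plus progesterone. Pooling of RNA from 5 mice is described for the WT, αERKO and βERKO groups and is not stated for BALB/c. With 1 array per condition no difference has a replicate check, no test was run, and a difference between conditions and a difference between 2 cultures cannot be told apart.

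Vitamin D5 is a form of vitamin D that carries the side chain of the plant sterol sitosterol. Vitamin D is hydroxylated to an active hormone, which binds the vitamin D receptor; the receptor pairs with a retinoid X receptor on DNA and recruits coactivators at genes of calcium transport, bone matrix and vitamin D breakdown. In the mammary gland the receptor is found in epithelium and stroma, and vitamin D compounds are known for slowing the growth of mammary epithelial cells. In gland culture, prolactin and hydrocortisone drive growth of lobules and milk protein synthesis, and their withdrawal is followed by regression.

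Levels are given as normalised intensity, the background-subtracted intensity of a probe divided by the median of all gene probes on its array, so that 1 is the level of a middling probe. Of 34967 gene probes, 22669 were good on both arrays, 2962 on the array with vitamin D5 alone, 2787 on the array without it alone, and 6549 on neither. The arrays were alike in their median intensity, 53 with and 50.3 without vitamin D5, in their median local background of 83 and in the share of good probes, 73.3% and 72.8%. Fewer spots were flagged irregular with vitamin D5, 207 against 282.

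Few genes differed by more than 2-fold, and with median scaling named genes were more often higher than lower with vitamin D5. Of the 22669 probes, 497 (2.19%) were over 2-fold apart, 254 (1.12%) higher and 243 (1.07%) lower with vitamin D5. Of the 10497 gene symbols that could be given to these probes, 232 (2.21%) were over 2-fold apart, 162 (1.54%) higher and 70 (0.667%) lower. The probes that were lower were dimmer and less often named than those that were higher. No symbol was given to 173 of the 243 lower and 89 of the 254 higher probes. Among the 16861 probes whose mean over both arrays was above the array median, 169 were higher and 65 lower, and among the 5808 others 85 were higher and 178 lower. The median log2 ratio over all symbols was 0.16, and each list median below is read beside that value. Each count of genes over 2-fold below is read beside the 1.54% higher and 0.667% lower of all symbols. Between 2 probes for the same RefSeq transcript the log2 ratio had an SD of 0.23 over 487 such pairs, 0.29 in the dimmest 163 pairs and 0.18 in the brightest 163. That SD is the error of a ratio within these arrays and holds nothing of the spread between cultures. The split between higher and lower probes depended on the scaling: with the 75th percentile of each array in place of the median, 163 were higher and 372 lower, so that 30.5% of the probes over 2-fold were higher in place of 51.1%. With normexp background correction 83 were higher and 22 lower (79.0% higher). The split of gene symbols was counted with median scaling alone. Scaling by the 75th percentile lowered the median log2 ratio of all symbols from 0.16 to 0.04.

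**Figure D1:**
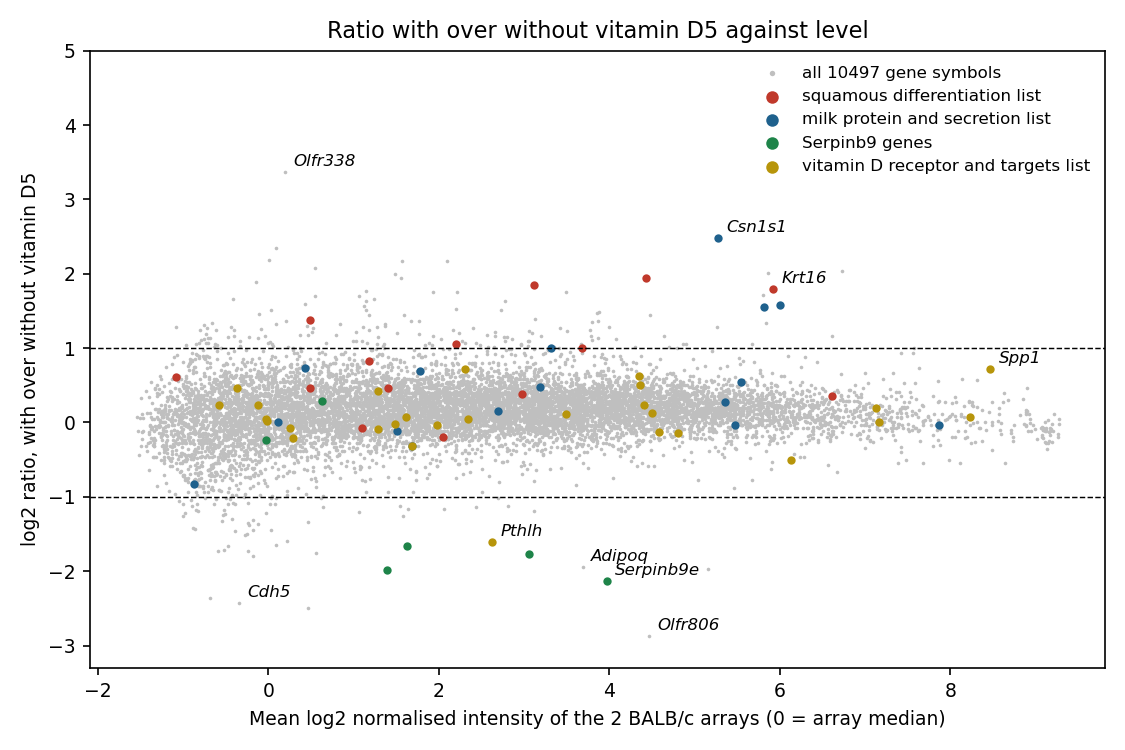
The log2 ratio with over without vitamin D5 (vertical axis) is plotted against the mean log2 normalised intensity of the 2 BALB/c arrays (horizontal axis, 0 is the array median) for 10497 gene symbols in grey, with 4 gene groups in colour and dashed lines at 2-fold. Csn1s1 and Krt16 stand above 2-fold at high levels, 4 Serpinb9 genes and Pthlh below it, and the other genes of the vitamin D list between the lines.

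Set among the 21 pairs of arrays by the share of probes over 2-fold apart, the 2 BALB/c arrays came at place 3 from the most alike, with a Pearson r of 0.985 across probes. Each of them was slightly closer to the C57 glands at 10 days than to the other BALB/c array: 1.84% of probes were over 2-fold apart for the BALB/c array without vitamin D5 and 1.98% for the array with it. Against C57 glands at 24 days without DMBA, which share the culture time of the BALB/c glands, the shares were 9.26% without and 7.22% with vitamin D5. These comparisons share arrays. By this share the BALB/c arrays, at 2.19%, differed slightly more from each other than either did from C57 glands at 10 days. Those glands were of another strain and culture time. Of the 254 probes higher with vitamin D5, the C57 level at 10 days lay between the BALB/c levels for 190 (74.8%), and of the 243 probes lower with vitamin D5 for 117 (48.1%). The C57 level at 24 days without DMBA lay between them for 96 (37.8%) and 129 (53.1%). These probes were chosen because the BALB/c levels were over 2-fold apart, which leaves a wide gap for another array to fall in. The share over all probes was not counted, so these counts give no result on where the C57 glands lie.

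**Figure D2:**
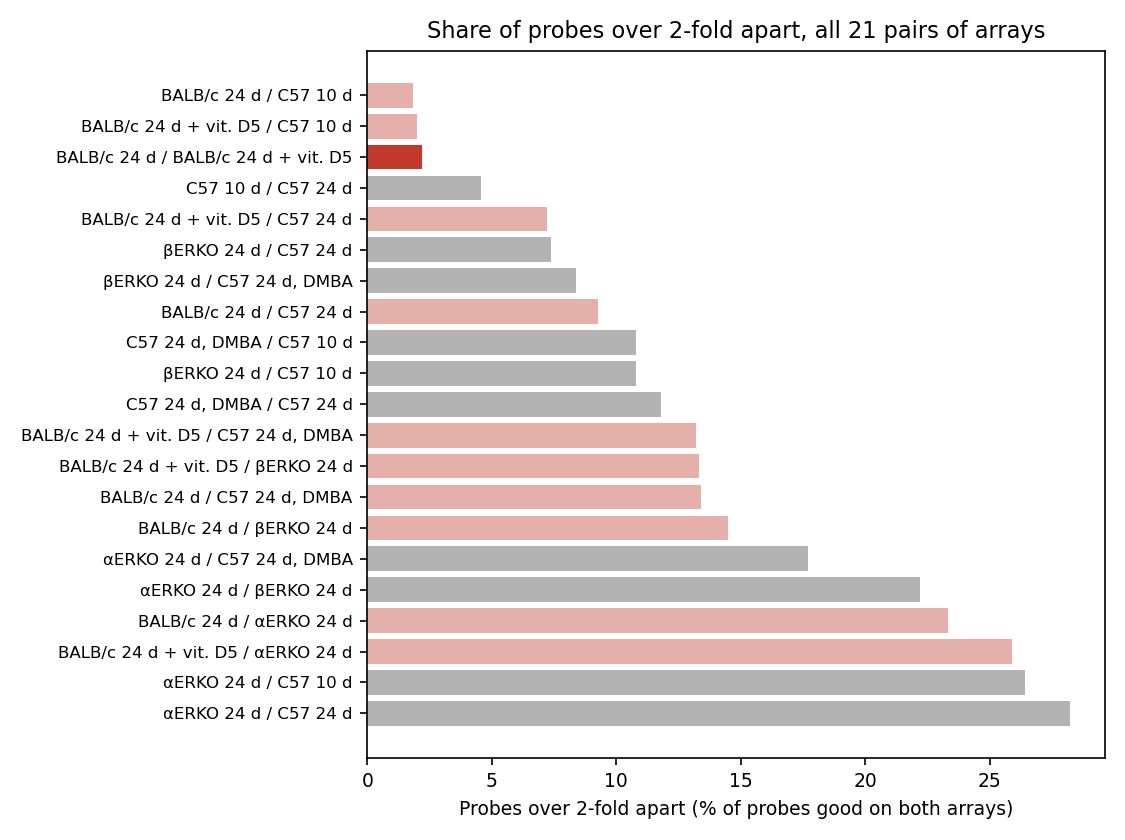
Bars give the percentage of probes, good on both arrays of a pair, that were over 2-fold apart, for all 21 pairs of the 7 arrays. The pair of BALB/c arrays is dark red, pairs with 1 BALB/c array are light red and the rest grey, and the 3 lowest bars are 1.84%, 1.98% and 2.19%.

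The list of vitamin D receptor partners, vitamin D enzymes and known target genes held no gene measured on both arrays that was over 2-fold higher with vitamin D5, and 1 that was over 2-fold lower. Of its 45 genes, 38 had a probe, 28 were measured on both arrays, 6 were good on 1 array and 4 were near background on both. No probe was named for Vdr, the receptor itself, for Cyp24a1, the enzyme that breaks down the active hormone and the most used marker of receptor activity, or for Trpv5, Atp2b1, Bglap2, Cdkn1b and Cst6. The median log2 ratio of the 28 measured genes was 0.06, against 0.16 over all symbols. The share over 2-fold higher was 0%, against 1.54% of all symbols, so that 0 of 28 genes gives no result either way. The share over 2-fold lower was 3.57%, which is 1 gene, against 0.667% of all symbols.

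The receptor's partners and coregulators were at nearly equal levels on the BALB/c arrays. Rxra, the main partner of the receptor, was at 2.98 without and 3.16 with vitamin D5. Rxrb was at 0.966 and 1.00, and Rxrg at 3.98 and 3.88. The coactivators Ncoa1 (log2 ratio −0.13), Ncoa3 (0.05) and Med1 (0.13) and the corepressor Ncor1 (0.11) differed by less than the SD between probes. Among the enzymes that make the hormone, Cyp27b1, which performs the activating 1α-hydroxylation in kidney and other tissues, was at 0.986 and 1.00 and the 25-hydroxylase Cyp2r1 at 2.83 and 2.79. Cyp27a1, a sterol 27-hydroxylase, was at 0.657 and 0.912 (log2 ratio 0.47).

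Calcium-binding and calcium-transport targets differed little where both arrays measured them. S100g, the calcium-binding protein calbindin-D9k and a classic intestinal target, was at 29.3 without and 26.6 with vitamin D5. Calb1, encoding a larger calbindin, was near background on both arrays. Trpv6 is the epithelial calcium channel through which vitamin D raises calcium uptake in the gut. It was near background without vitamin D5 (0.328) and good with it (0.723). The ratio of 2.20 is set against a value near background and is not a sure lower limit. The level of Trpv6 with vitamin D5 was above the 0.323 to 0.659 of the other 5 arrays. Another 4 genes were good with vitamin D5 alone, with ratios of 1.67 to 1.92 against values near background: Fbp1, Cyp3a13, Pth1r and Ncoa2. Tnfsf11, the RANK ligand, was good without vitamin D5 alone, at 1.42 times the lowest value called good on the array with it.

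Of the bone matrix targets, Spp1, encoding osteopontin, was at 276 without and 456 with vitamin D5 (log2 ratio 0.72), and its level with vitamin D5 was above all 5 other arrays, which lay between 5.33 and 277. Bglap, encoding osteocalcin, went the other way, from 83.5 to 59.1 (log2 ratio −0.50). Car2, encoding a carbonic anhydrase, was at 3.84 and 6.34 (0.72), and Trp63, encoding the p53 relative of basal epithelium, at 16.4 and 25.3 (0.63). Both were higher with vitamin D5 than on all the other arrays. The genes of growth arrest on the list were close to the median of all symbols: the cell cycle inhibitor Cdkn1a was at 131 and 150 (0.20) and Gadd45a at 19.6 and 23.1 (0.24). Igfbp3, a binding protein of insulin-like growth factors, was at 1.31 and 1.14.

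Pthlh was the 1 gene of the list over 2-fold apart. It encodes parathyroid hormone-related protein, a regulator of calcium release and of mammary development whose gene the active vitamin D hormone is known to repress. Its normalised intensity was 10.8 without and 3.53 with vitamin D5, a 3.06-fold lower level (log2 ratio −1.61). The other arrays gave 4.92 in C57 glands at 10 days, 4.84 at 24 days, 2.35 with DMBA, 6.18 in βERKO and 0.710 in αERKO glands. The array without vitamin D5 was thus the highest of the 7, and the array with it lay within the range of the other 5.

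**Figure D3:**
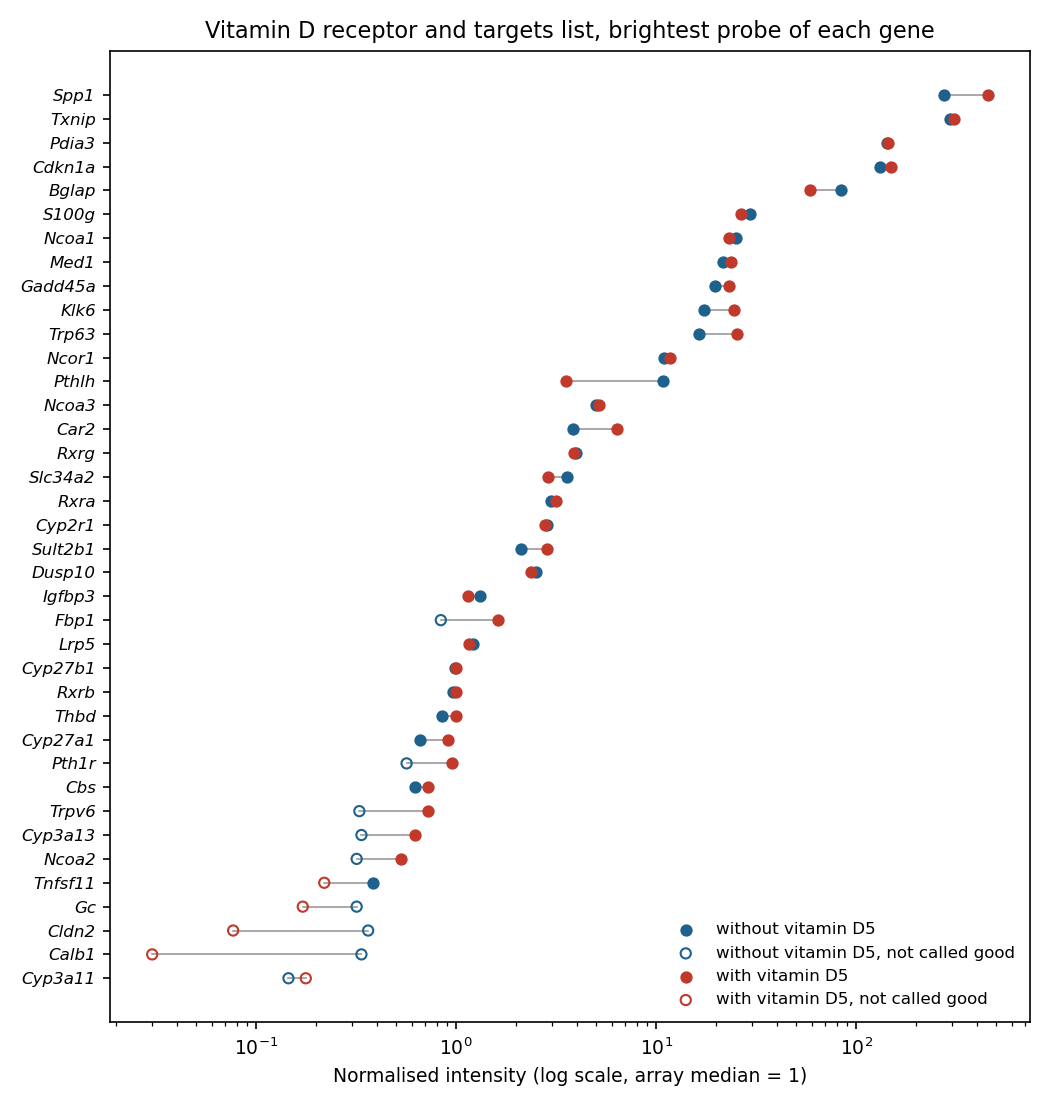
Normalised intensity (horizontal log axis, array median 1) of the brightest probe of each of the 38 vitamin D list genes with a probe, without (blue) and with (red) vitamin D5, filled where the spot was called good and open where it was near background. The lines joining the levels are short except for Pthlh, which fell from 10.8 to 3.53 in intensity, and for genes with an open symbol.

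A search of the RefSeq promoter windows (GRCm38.p6, 250 bases before to 50 after the gene start) for the DR3 element, the direct repeat with a spacer of 3 bases that the vitamin D receptor binds, on both strands, found it in 12 of 27025 genes (0.0444%). None of the 8402 measured genes with a window held it, nor did any of the 35 vitamin D list genes with a window. Many known vitamin D elements lie farther from the start than this window reaches.

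Some milk protein genes were among those with the highest ratios. Of 16 measured genes of the milk protein and secretion list, 4 were over 2-fold higher with vitamin D5, 0 lower and 12 within 2-fold (25.0% higher against 1.54% of all symbols, median log2 ratio 0.38). Csn1s1, encoding αs1-casein, was at 16.4 without and 91.4 with vitamin D5, a 5.57-fold higher level and the second highest ratio of all symbols. On the other arrays it lay between 0.699 in αERKO glands and 22.2 in C57 glands with DMBA, so the array with vitamin D5 stood above all of them. Csn3, encoding κ-casein, was at 37.1 and 111, but here the level with vitamin D5 was within the range of the others, which reached 266 in C57 glands at 24 days. Ltf, encoding the iron-binding milk protein lactoferrin, was at 32.8 and 96.5, and Lalba, encoding the α-lactalbumin of lactose synthesis, at 7.05 and 14.1, a ratio at the line that 4 of 6 other scaling and background settings left under 2-fold. Of the 16 genes, 11 had a log2 ratio above 0 and 9 had one above the median of all symbols. The 12 within 2-fold ran from a log2 ratio of −0.83 for Glycam1 (0.731 and 0.411) to 0.73 for Pigr, with the milk fat globule genes Btn1a1 and Plin2 at −0.03 each. The casein gene Csn1s2b, also within 2-fold, was at 2.97 and 2.73. Stat5a, the transcription factor that carries the prolactin signal, was at 6.15 and 6.86. Genes named here and below outside the naming rule given in the methods were chosen after their values were seen. In RNA of whole glands, more cells of a type and more RNA per cell cannot be told apart.

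The promoter of Csn1s1 is shown because the caseins are the textbook targets of STAT5. Capitals mark the match to TTCNNNGAA, the palindrome that STAT5 recognises, searched on both strands (chr5:87665958-87666257, plus strand, GRCm38.p6).
Csn1s1: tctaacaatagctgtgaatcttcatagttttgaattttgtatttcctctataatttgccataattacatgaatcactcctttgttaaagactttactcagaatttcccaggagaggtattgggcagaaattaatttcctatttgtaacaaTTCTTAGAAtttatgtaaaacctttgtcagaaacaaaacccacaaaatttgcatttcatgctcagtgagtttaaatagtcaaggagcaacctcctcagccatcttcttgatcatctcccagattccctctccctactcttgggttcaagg
The match begins 100 bases before the gene start. The same letters were in the windows of 2582 of 27025 genes (9.55%) and of 4 of the 12 measured milk genes with a window: Csn1s1, Csn1s2a, Glycam1 and Pigr. Of these, Csn1s2a was at 2.70 and 4.35, Pigr at 1.05 and 1.74 and Glycam1 at 0.731 and 0.411.

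Of 14 measured genes of squamous differentiation, 6 were over 2-fold higher with vitamin D5, 0 lower and 8 within 2-fold (42.9% higher against 1.54% of all symbols, median log2 ratio 0.72). Krt6a and Krt16 encode keratins that stratified epithelia make in wound repair and rapid growth. Krt6a was at 11 without and 42.4 with vitamin D5, 3.87-fold higher, and Krt16 at 32.6 and 113, 3.46-fold higher. In both cases C57 glands at 10 days came next, at 29.6 and 75, and the other 4 arrays were at or below 14.7 for Krt6a and 22.0 for Krt16. Krt1, a keratin of suprabasal epidermis, was at 0.872 and 2.26. Lor, encoding loricrin, the main protein of the cornified envelope, was level (2.20 and 2.10), as was Krt4 (4.43 and 3.86).

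Of 15 measured keratins, 5 were over 2-fold higher and 0 lower (33.3% higher against 1.54% of all symbols). Beside the 3 above these were Krt17, a keratin of basal and stressed epithelium, at 24.6 and 59.9, and Krt8, of luminal cells, at 18.2 and 36.9. Krt8 fell short of 2-fold under other scalings (log2 ratio 0.84 to 1.03). The other keratins of the main epithelial layers differed less: Krt18, the luminal partner of Krt8, was at 376 and 381, Krt5 at 346 and 453 and Krt14 at 154 and 256.

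The Sprr genes lie side by side on chromosome 3 and encode small proline-rich proteins of the cornified envelope. All 9 measured were higher with vitamin D5, 6 of them by over 2-fold, where 1.54% of all symbols were over 2-fold higher. Sprr2a1, Sprr1b and Sprr1a were already counted among the squamous differentiation genes over 2-fold. Sprr2a1 was at 4.57 and 16.5, Sprr2h at 9.08 and 23.5, Sprr2e at 1.33 and 3.11, Sprr1b at 9.06 and 18.2, Sprr1a at 3.20 and 6.63 and Sprr2d at 0.448 and 0.938. Their levels were not particular to the BALB/c glands: Sprr1a reached 40.3 and Sprr1b 20.3 in βERKO glands. Sprr3, Sprr4 and Sprr2b had log2 ratios of 0.61, 0.78 and 0.38. Of 10 measured Lce genes, the late envelope proteins, 2 were over 2-fold higher, Lce3f (1.83 and 5.01) and Lce1b (0.719 and 1.85). The counts of these families were taken after their values were seen.

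AP-1 factors are known regulators of Sprr genes, and 2 of these promoters are shown with their matches to TGANTCA, the AP-1 site, in capitals (searched on both strands, GRCm38.p6). The window of Sprr2h is chr3:92385435-92385734 on the plus strand and that of Sprr1b chr3:92438730-92439029 on the minus strand.
Sprr2h: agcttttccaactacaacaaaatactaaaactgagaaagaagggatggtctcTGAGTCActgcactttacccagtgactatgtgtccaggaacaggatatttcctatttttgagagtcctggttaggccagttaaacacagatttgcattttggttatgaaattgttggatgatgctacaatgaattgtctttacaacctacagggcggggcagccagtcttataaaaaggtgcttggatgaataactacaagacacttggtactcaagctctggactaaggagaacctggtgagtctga
Sprr1b: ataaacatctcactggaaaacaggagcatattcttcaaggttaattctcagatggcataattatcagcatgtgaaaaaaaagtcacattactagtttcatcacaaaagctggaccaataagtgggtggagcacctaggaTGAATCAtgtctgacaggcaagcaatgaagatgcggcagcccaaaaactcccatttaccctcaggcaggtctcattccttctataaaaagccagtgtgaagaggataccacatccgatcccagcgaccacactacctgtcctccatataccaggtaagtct
The match begins 198 bases before the start of Sprr2h and 111 bases before that of Sprr1b. The site was in the windows of 6 of the 9 measured Sprr genes (Sprr1a, Sprr1b, Sprr2b, Sprr2d, Sprr2e and Sprr2h), against 2425 of 27025 genes (8.97%). Sprr2a1, with the largest ratio of the family, had none. Over all genes with a window, it was held by 18 of the 111 with a log2 ratio above 1 after rounding to 2 decimals (16.2%). It was held by 6 of the 57 that were over 2-fold lower (10.5%). Sprr1b, at a rounded log2 ratio of 1.0, is not among the 18, which include Sprr1a, Sprr2d, Sprr2e and Sprr2h. Of the 18 measured AP-1 and immediate early genes, 1 was over 2-fold higher: Fos, a subunit of AP-1, was at 1.99 without and 5.11 with vitamin D5, and Junb was at 3.38 and 5.31.

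Stfa3 and Cstdc6, named for their large ratios, belong to the stefins, intracellular inhibitors of cysteine proteases. Stfa3 was at 29.1 without and 117 with vitamin D5, 4.02-fold higher, and Cstdc6 at 52.3 and 215, 4.11-fold higher. C57 glands at 10 days lay between, at 74.6 and 109, while C57 glands at 24 days were at 0.737 and 7.93. Calm4, a calmodulin-like protein of the epidermis, was at 1.40 and 6.28, and Wfdc12, encoding a WAP domain protein of protease inhibition and defence, at 1.5 and 5.76. For Wfdc12 the array without vitamin D5 was the lowest of the 7, and αERKO glands were higher than either BALB/c array, at 7.95.

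**Figure D4:**
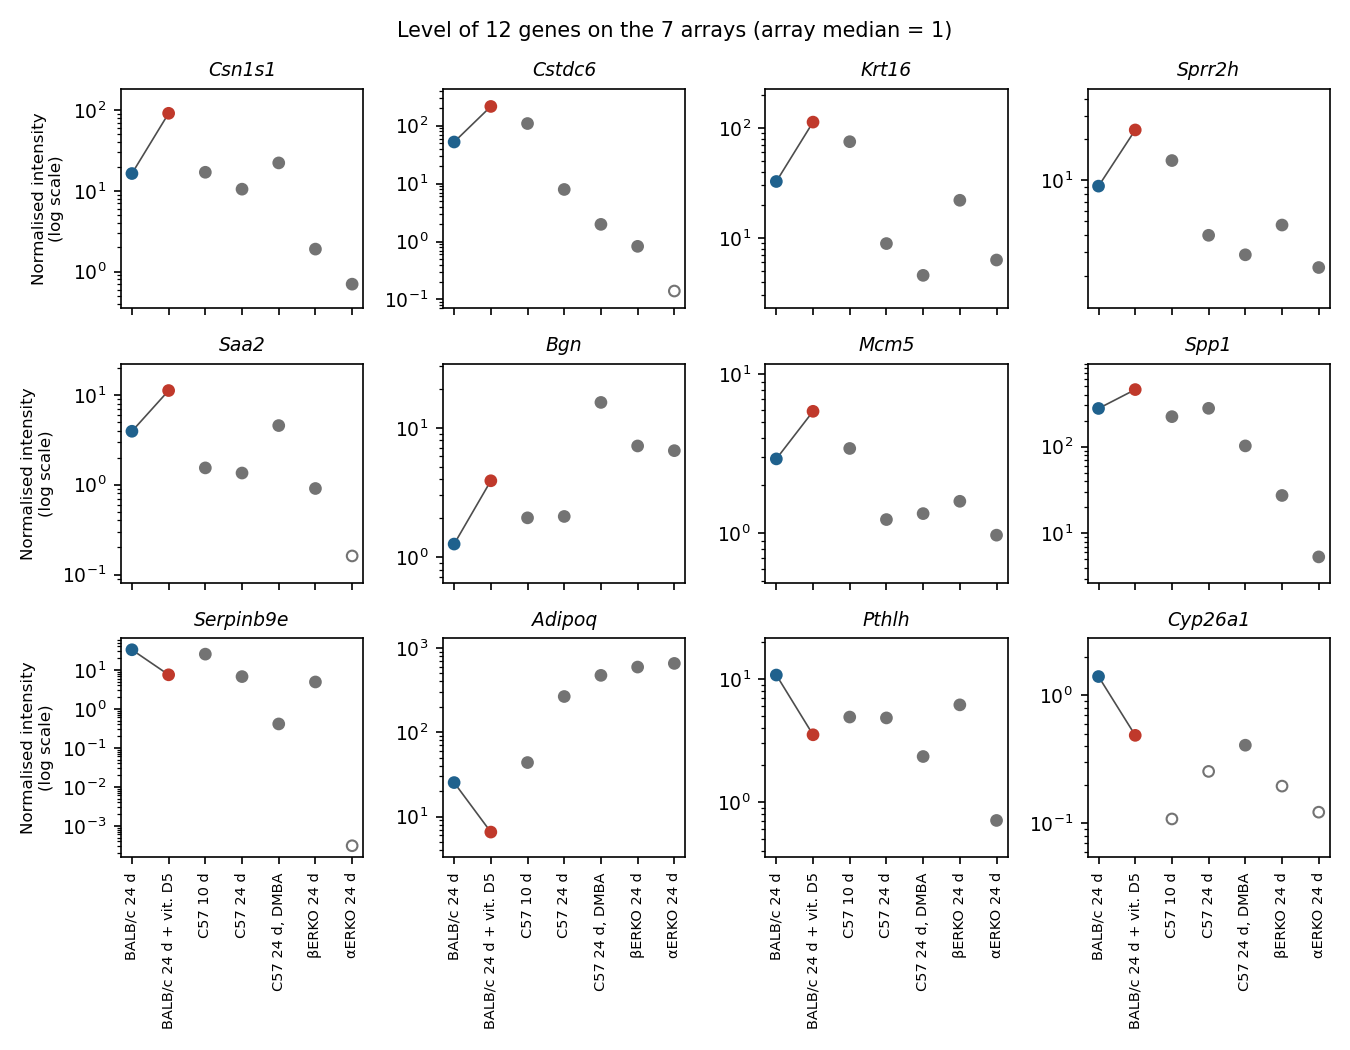
Normalised intensity (vertical log axes, array median 1) of 12 genes on the 7 arrays, with the BALB/c arrays without (blue) and with (red) vitamin D5 joined by a line, filled symbols for spots called good and open symbols for the rest. For Csn1s1, Krt16, Sprr2h, Saa2 and Mcm5 the array with vitamin D5 is the highest of the 7, and for Adipoq it is the lowest, at 6.55.

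Of 19 measured acute-phase and innate defence genes, 7 were over 2-fold higher with vitamin D5 and 0 lower (36.8%, median log2 ratio 0.84). Of the 19, 18 had a log2 ratio above 0 and 17 had one above the median of all symbols. Among the 7 were serum amyloid A genes, which epithelia and liver make in inflammation. Saa2 was at 3.94 and 11.2 and Saa1 at 8.68 and 24.0. Both were above the other 5 arrays, where C57 glands with DMBA came next at 4.56 and 20.9. Pglyrp1, a bactericidal peptidoglycan-binding protein, was at 5.42 and 14.2. Ltf, given above, also stands on this list and has its largest log2 ratio (1.56). Other members over 2-fold were S100a9, a subunit of the neutrophil and keratinocyte protein calprotectin (2.13 and 5.47), the complement factor Cfb (1.65 and 4.06) and Lbp, which binds lipopolysaccharide (2.63 and 5.43). S100a8, the partner of S100a9, was at 40.1 and 52.3, and Slpi, a secreted inhibitor of leukocyte proteases, was level at 556 and 530.

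Among 22 measured chemokines, 3 were over 2-fold higher and 1 lower. Cxcl5 and Cxcl1, which attract neutrophils, were at 8.78 and 24.5 and at 65.1 and 146. Ccl6 was at 4.19 and 8.47, a log2 ratio of 1.01 that 4 of 6 other scaling and background settings left under 2-fold. Cxcl14, a chemokine of resting epithelium, was lower, at 1.54 and 0.722. Of 13 measured cytokine and prostaglandin genes, 3 were over 2-fold higher and 0 lower (median 0.80). These were Il1rn, the interleukin 1 receptor antagonist (4.16 and 9.68), and the dim Il11 (0.673 and 1.69) and Tnf (0.484 and 1.07). With normexp correction the log2 ratios of Il11, Tnf and Cxcl14 were 0.67, 0.47 and −0.55. Ptgs2, the inducible cyclooxygenase, was just under 2-fold, at 5.79 and 11.1, and in C57 glands at 10 days it reached 14.3. Of 6 macrophage, 5 T lymphocyte and 5 B lymphocyte genes measured on both arrays, 0 were over 2-fold apart, where 2.21% of all symbols were, so that lists of this size give no result either way. C1qa, a complement subunit that macrophages make, was at 1.17 and 1.36, below the 2.86 to 157 of the other 5 arrays. Among the genes with the largest rises, Sh2d1a, an adaptor of lymphocyte receptors, was dim at 0.474 and 2.41.

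Of 32 measured genes of DNA replication and mitosis, 31 had a log2 ratio above 0 and 30 had one above the median of all symbols. Of the 32, 3 were over 2-fold higher and 0 lower (9.38%, median 0.64). The level with vitamin D5 was above all 5 other arrays for 27 of the 32, against 16.8% of all probes, and the level without it for 16 of the 32, against 13.8% of all probes. The 3 were Mcm7, a subunit of the replicative helicase (1.64 and 3.66), and the mitotic kinases Aurka (1.10 and 2.32) and Plk1 (0.452 and 0.915). Mcm5, the partner of Mcm7, was just under 2-fold at 2.94 and 5.86 (log2 ratio 0.99). Aurka, Plk1 and Mcm7 fell short of 2-fold with normexp correction (log2 ratios 0.66, 0.38 and 0.82). Pcna, the sliding clamp of replication, was level at 90.4 and 85.4, and Tyms, which makes thymidylate, was at 27.4 and 31.3. Of 11 measured D cyclin, CDK4/6 and CDK inhibitor genes, 0 were over 2-fold apart. Ccnd2, a D-type cyclin, was at 5.04 and 10.0, and the other 5 arrays ran from 7.54 to 33.8. Of the 12 BCL2 family genes and 19 p53 target genes measured, 0 were over 2-fold apart, and the proapoptotic Pmaip1 was closest, at 9.24 and 17.7. Over 2-fold apart were 2.21% of all symbols, so a count of 0 in these 3 lists gives no result either way.

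Of 17 measured fibroblast and collagen matrix genes, 6 were over 2-fold higher with vitamin D5 and 0 lower (35.3%, median log2 ratio 0.73). The small proteoglycans Lum and Bgn, which bind collagen fibrils, were at 0.809 and 2.63 and at 1.26 and 3.89. Col6a1, encoding a collagen VI chain, was at 0.561 and 1.54, Col5a2 at 1.13 and 2.84 and Col3a1 at 3.89 and 7.99. These levels stayed under those of C57 glands with DMBA and of both knockouts, where Lum was between 4.01 and 22.1 and Col5a2 between 13.4 and 20.3. Not all stromal genes went this way: Sparc was at 37.7 and 26.1 (−0.53), Thy1 at 1.05 and 0.603 (−0.81) and Col1a1, dim on both arrays, at 0.474 and 0.356 (−0.41). Of 13 matrix metalloproteinase and inhibitor genes, 3 were over 2-fold higher: Mmp3, stromelysin (8.72 and 22.2), its inhibitor Timp1 (5.6 and 13) and the dim collagenase Mmp8 (0.621 and 1.36). With normexp correction Col5a2, Col6a1 and Mmp8 fell short of 2-fold (log2 ratios 0.85, 0.69 and 0.53). Of the basement membrane genes, 0 of 9 were over 2-fold apart, where 2.21% of all symbols were, so this count gives no result either way.

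Of 19 measured genes of cholesterol synthesis and uptake, 3 were over 2-fold higher with vitamin D5 and 1 lower (median log2 ratio 0.64). A log2 ratio above the median of all symbols was held by 15 of the 19. Msmo1 (4.67 and 9.99), Fdps (35.5 and 73.3) and Cyp51 (8.82 and 18.2), which make sterol and isoprenoid intermediates, were at the 2-fold line, and scaling by the 75th percentile, quantile or cyclic loess left each of them under it (log2 ratios 0.89 to 0.97). Sqle, the squalene epoxidase, was lower, at 2.33 and 1.05. Among sterol-metabolising enzymes, Cyp7b1, an oxysterol 7α-hydroxylase, was at 1.36 and 2.90. None of the 16 fatty acid and triglyceride synthesis genes was over 2-fold apart, where 2.21% of all symbols were, so this gives no result either way.

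Retinoid genes went both ways. Aldh1a3, which makes retinoic acid, was at 1.64 without and 4.10 with vitamin D5, Crabp1, which binds it in the cytosol, at 16.7 and 37.6, and the retinoid-responsive Rarres2 at 5.69 and 12.2. Cyp26a1, the enzyme that degrades retinoic acid and is induced by it, was lower, at 1.40 and 0.486 (log2 ratio −1.52), and both BALB/c arrays were above the other 5, on 4 of which its spot was not called good. With normexp correction the log2 ratio of Cyp26a1 was −0.68. Its promoter is shown for the retinoic acid element through which it responds to its substrate. Capitals mark the DR5 match, a direct repeat with a spacer of 5 bases, found on the minus strand of the window chr19:37697558-37697857 (plus strand gene, GRCm38.p6).
Cyp26a1: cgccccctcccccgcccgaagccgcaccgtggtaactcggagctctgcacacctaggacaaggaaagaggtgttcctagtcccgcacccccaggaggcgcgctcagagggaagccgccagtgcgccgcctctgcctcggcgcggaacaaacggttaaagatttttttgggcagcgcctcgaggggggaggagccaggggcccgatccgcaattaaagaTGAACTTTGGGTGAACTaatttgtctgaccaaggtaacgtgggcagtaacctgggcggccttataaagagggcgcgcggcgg
The match begins 32 bases before the gene start. The element was in the windows of 31 of 27025 genes (0.115%) and of 1 of the 57 genes over 2-fold lower, which is Cyp26a1.

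Of the 6 measured Serpinb9 genes, which encode inhibitors of granzyme B and related serine proteases, 4 were over 2-fold lower: Serpinb9e was at 32.8 without and 7.47 with vitamin D5, Serpinb9g at 15.4 and 4.52, Serpinb9 at 5.49 and 1.74 and Serpinb9d at 5.22 and 1.32, which is 3.17-fold to 4.39-fold lower. Serpinb9b and Serpinb9c were within 2-fold. Of all symbols, 0.667% were over 2-fold lower. The Serpinb9 family was counted after its values were seen. In C57 glands at 10 days the 4 genes were close to the BALB/c array without vitamin D5 (25.3, 15.7, 5.19 and 4.02), and in C57 glands at 24 days they lay lower, at 6.72, 8.85, 3.56 and 1.82. The Serpinb9, Sprr2, stefin and serum amyloid A genes are families of close copies, and how far their probes distinguish the copies was not tested.

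For some other large falls 1 array stood apart from the other 6. Olfr806, an olfactory receptor symbol, was at 8.14 with vitamin D5 and between 36.7 and 59.6 on the other 6 arrays. Cdh5, the cadherin of endothelial junctions, was at 1.84 without vitamin D5 and between 0.113 and 0.380 on the other 6, and Fut7, a fucosyltransferase, at 1.41 and between 0.0712 and 0.510. The spot of Cdh5 was not called good on any of the 5 arrays outside BALB/c, and that of Fut7 was not called good on 3 of them. Olfr338, with the highest ratio of all symbols, was at 0.357 and 3.68, and the other 5 arrays were between 0.473 and 1.10. Of 267 olfactory receptor symbols measured, 5 were over 2-fold higher and 8 lower, with a median log2 ratio of 0.01. Of all symbols, 1.54% were over 2-fold higher and 0.667% lower. Fxyd2, a regulator of the sodium pump, was at 70.5 and 18.0, with the other arrays between 22.2 and 103. Scd4, a stearoyl-CoA desaturase, was at 3.29 and 0.585.

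Of the genes of fat cells and vessels, 1 of 15 adipocyte and 1 of 9 endothelial genes were over 2-fold lower with vitamin D5. Each count is 1 gene, and of all symbols 0.667% were over 2-fold lower. Only 4 of the 15 adipocyte and 2 of the 9 endothelial genes were higher with vitamin D5 than without it. Adipoq, encoding the adipocyte hormone adiponectin, was at 25.3 without and 6.55 with vitamin D5, and both values were below the other 5 arrays, which ran from 43.7 in C57 glands at 10 days to 654 in αERKO glands. It was the 1 adipocyte gene of 15 over 2-fold apart (median log2 ratio of the list −0.12). Plin4, of the lipid droplet coat, was at 2.00 and 1.09, and Fabp4, the adipocyte fatty acid carrier, at 214 and 150, while Pparg, the master regulator of fat cells, was at 7.48 and 8.60. On the array with vitamin D5, 11 of the 15 adipocyte genes were below all 5 other arrays, and on the array without it 12 of the 15. Of 9 endothelial genes, Cdh5 was the 1 over 2-fold lower, Cldn5 was at 1.17 and 0.635, and the median was −0.26.

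**Figure D5:**
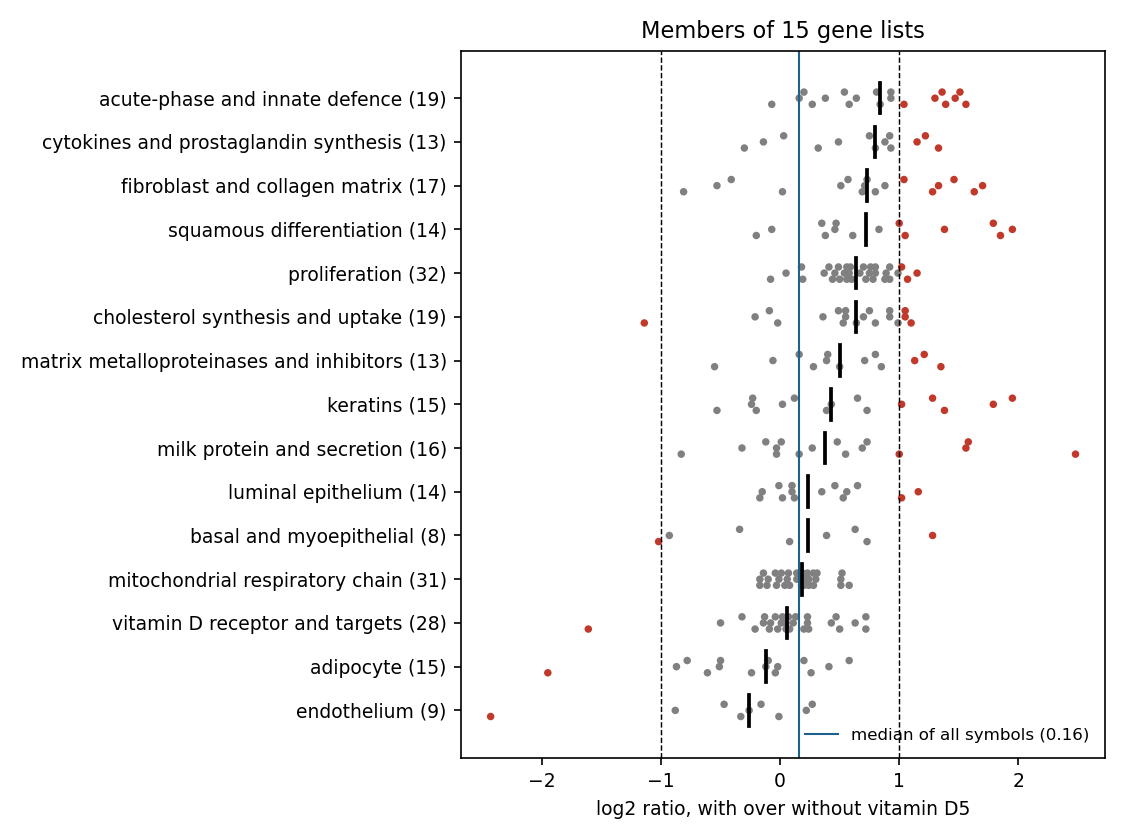
Each point is the log2 ratio with over without vitamin D5 (horizontal axis) of 1 gene measured on both arrays, in 15 lists with the number of genes in brackets; red points are over 2-fold, black bars are list medians and the blue line is the median of all symbols, 0.16. Medians run from 0.84 for acute-phase and defence genes to −0.26 for endothelium, and the vitamin D list is at 0.06.

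The summed levels of cell type markers differed between the BALB/c arrays, with the brightest probes weighing most in each sum. The summed normalised intensity of 13 luminal markers was 935 without and 1100 with vitamin D5, and that of 8 basal and myoepithelial markers with a probe was 616 and 853, with Cnn1 over 2-fold lower (9.21 and 4.53) and Krt17 over 2-fold higher. That of 8 fibroblast markers was 34.0 and 59.6, within the 25.3 to 434 of the other arrays. That of 9 adipocyte markers was 442 and 328, below the 465 to 3590 of the other arrays, and that of 9 endothelial markers 17.4 and 13.9. Among markers good on both arrays the median log2 ratio was 0.11 for luminal and 0.23 for basal markers, against 0.16 over all symbols. It was 0.73 for fibroblast, −0.5 for adipocyte and −0.26 for endothelial markers. The part of these shifts in the differences of the stromal, keratin and fat genes was not tested. The sum of 9 skeletal muscle markers was 9.80 and 8.53, with 5 and 7 of them called good, and that of 4 erythroid markers 4.09 and 3.30, with 3 and 2 called good, against sums of 2310 and 583 in αERKO glands. Of the 13 luminal markers, 12 were good without and 13 with vitamin D5, and all 8 basal markers with a probe were good on both arrays.

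Of 44 gene lists, 20 had no gene over 2-fold apart, where 2.21% of all symbols were, so such counts give no result either way. The 20 lists include the mitochondrial respiratory chain (31 genes, median log2 ratio 0.18), heat shock proteins and chaperonins (17 genes, 0.24), glycolysis and hypoxia (20 genes, 0.04), the integrated stress response (17 genes, 0.09), TGF-beta family genes (18 genes, 0.22), Wnt ligands and inhibitors (12 genes, 0.09), the insulin-like growth factor axis (9 genes, 0.53) and steroid and nuclear receptors (12 genes, 0.07). Of the 14 luminal genes, 2 were over 2-fold higher, Krt8 and Kit, a receptor of luminal progenitors, at 6.13 and 13.7. Ahr, the aryl hydrocarbon receptor, was at 9.46 and 20.5, while its target Cyp1b1 was at 109 and 157 and Cyp1a2 at 0.804 and 0.601. Relative to the median of all symbols, the list medians ranged over the scaling and background settings as follows: 0.64 to 0.70 for acute-phase and defence, 0.51 to 0.57 for fibroblast and collagen matrix, 0.45 to 0.51 for proliferation, 0.42 to 0.60 for cholesterol synthesis, 0.35 (normexp) to 0.70 (quantile and cyclic loess) for squamous differentiation, 0.17 to 0.23 for milk, −0.10 to −0.06 for the vitamin D list and −0.31 to −0.21 for adipocyte genes.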

How the data were processed

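RNA was labelled with Cy5 and hybridised to 1-colour CodeLink arrays. The deposited intensity of each spot equals the spot's mean minus the median background around it, as tested on the scanner tables the authors deposited; the authors also deposited a normalized intensity, which is that value divided by 1 constant per array. Here intensities of gene probes were divided by the array's median over them, control spots left out, values at or below 0 raised to the lowest value above 0, and log2 taken. Probes flagged good on both BALB/c arrays were compared, with a 2-fold threshold and no test, since each group has 1 array. The number of arrays limits the precision. A probe good on 1 array has a ratio set against its own value on the dim array or, if higher, the lowest value called good there. Such a ratio is not a sure lower limit. The unnamed table of the whole series was not used.

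Probes were named by RefSeq accession (14763 of 15553 matched, 13971 symbols) and a gene is given by its brightest such probe. Named genes are the 15 largest rises and falls, every gene of the vitamin D list and up to 4 of each other list with the largest difference. The comparison, the 44 gene lists and the alternatives were chosen with earlier results of these data known. limma 3.58.1 (R 4.3.3) was used for quantile, cyclic loess and normexp (offset 50) alternatives. The counting was checked on simulated data.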

Additional observations from a re-analysis of the deposited data

How the results depend on the processing

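Besides the main count of 497 probes over 2-fold (254 higher and 243 lower with vitamin D5), 75th percentile scaling gave 163 higher and 372 lower. Normexp background correction gave 105 (83 higher, 22 lower) and moved the pair from place 3 to place 2 among the 21 pairs of arrays. Keeping probes that either array called good gave 3461 (1454 and 2007) and 2 genes of the vitamin D list in place of 1. Probes good on all 7 arrays gave 227 (148 and 79), and probes with a mean above the array median 234 (169 and 65). A 1.5-fold threshold gave 2386 (1430 and 956), a 3-fold threshold 85 (41 and 44), and counting gene symbols 232 (162 and 70). Quantile, cyclic loess, a median over all spots and the deposited normalized intensities left each count within 1.5 times. The cause of these differences was not tested, except that the filters test fewer or more probes.

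Of the 74 named genes over 2-fold, 39 stayed over 2-fold under all 6 scaling and background settings and none changed sign; 20 of the other 35 fell short with normexp alone, which adds an offset of 50 to intensities whose median is near it, and the other 15 were Ahr, Aurka, Ccl6, Ces1g, Crabp1, Cxcl1, Cyp51, Cyp7b1, Fdps, Gbp2, Krt8, Msmo1, Plk1, Rarres2 and Lalba. Of 396 list medians under alternatives, 389 lay within 0.23 of the main value. No paired analysis was possible because each group has 1 array. Dim genes are the least precise, and with 1 array per condition no alternative stands in for a second culture.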
